A study of Homo sapiens with 6 samples.

Results

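The genes described here encode 38 proteins of the centromere and kinetochore, the chromatin and the protein assembly by which a chromosome holds on to spindle microtubules in mitosis. They were listed by gene symbol and looked up in a table of 59050 entries. All 38 were found, and all had a mean of 1 TPM or more and so entered the test. Bulk RNA-seq libraries came from human foreskin fibroblasts (HFF, at about passage 18) that carried ER:RAS, a fusion of H-RAS G12V with the hormone-binding part of the oestrogen receptor, delivered by a lentivirus packaged in HEK293T cells. In the 4-OHT group (3 libraries) 100 nM 4-hydroxytamoxifen had been added to switch the fusion on, and the cells, described as being in oncogene-induced senescence, were taken a week later. The DMSO group (3 libraries) is named by its vehicle alone, and the design text does not describe these cells further. Resistant clones were selected with neomycin to give stable lines, and nothing in the labels says which line a library came from, when the DMSO cells were taken or whether replicates were separate cultures. The p-values therefore speak only of the spread among these libraries. TPM are corrected for transcript length, so that levels can be set side by side between genes.

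At the centre of the assembly lies the histone H3 variant CENP-A, which marks the centromere and is loaded by the chaperone HJURP with the help of the Mis18 proteins after mitosis. On it stands the inner kinetochore, the constitutive centromere-associated network (CCAN), and on that the outer kinetochore, in which the MIS12 complex forms the platform and the NDC80 complex grips the microtubule. The RZZ complex, spindly, the SKA complex and astrin-SKAP join during mitosis and tie the kinetochore to dynein, to the spindle checkpoint or to the microtubule end. Transcripts of many of these proteins are known to rise in the G2 phase of cycling cells, through factors that act at a promoter element called the cell cycle genes homology region (CHR). In bulk RNA, fewer cells that express a gene and less of its RNA per cell cannot be told apart.

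Of the 38 genes, 34 fell in the 4-OHT libraries and none rose, where 29.9% of the 15272 genes tested were lower, 19.8% were higher and 49.6% differed in either direction. The median log2 fold change was -1.65 over the members and -0.09 over all tested genes (4-OHT minus DMSO, limma on log2(TPM + 1), adjusted p under 0.05). The 34 genes that fell had their 3 4-OHT libraries entirely below their 3 DMSO libraries, an order seen in 35.2% of all tested genes. A fall of at least 1 log2 unit was called for 28 members, against 8.21% of all tested genes, and of at least 2 log2 units for 17 members, against 1.68%. The 4 members that were not called were CENPB, CENPC, CENPT and NSL1. Of all called genes 60.2% were lower as deposited and 47.0% under median-of-ratios scaling between libraries, which moved the log2 fold changes of all genes by a median of 0.113. The count of 34 was the same under that scaling.

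The summed level of the 38 transcripts was 522, 533 and 521 TPM in the 4-OHT libraries and 1298, 1272 and 1349 TPM in the DMSO libraries. What was left differed widely among the genes. The mean in 4-OHT was under 20% of the DMSO mean for 11 members, between 20% and 30% for 9, between 30% and 50% for 9, between 50% and 80% for 5, and at or above 80% for 4. The lowest was SPC25 at 12.5% and the highest CENPT at 106%. CENPB alone made up 20.4%, 19.98% and 19.1% of the summed level in 4-OHT, and 8.59%, 8.30% and 8.24% in DMSO.

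**Figure D1:**
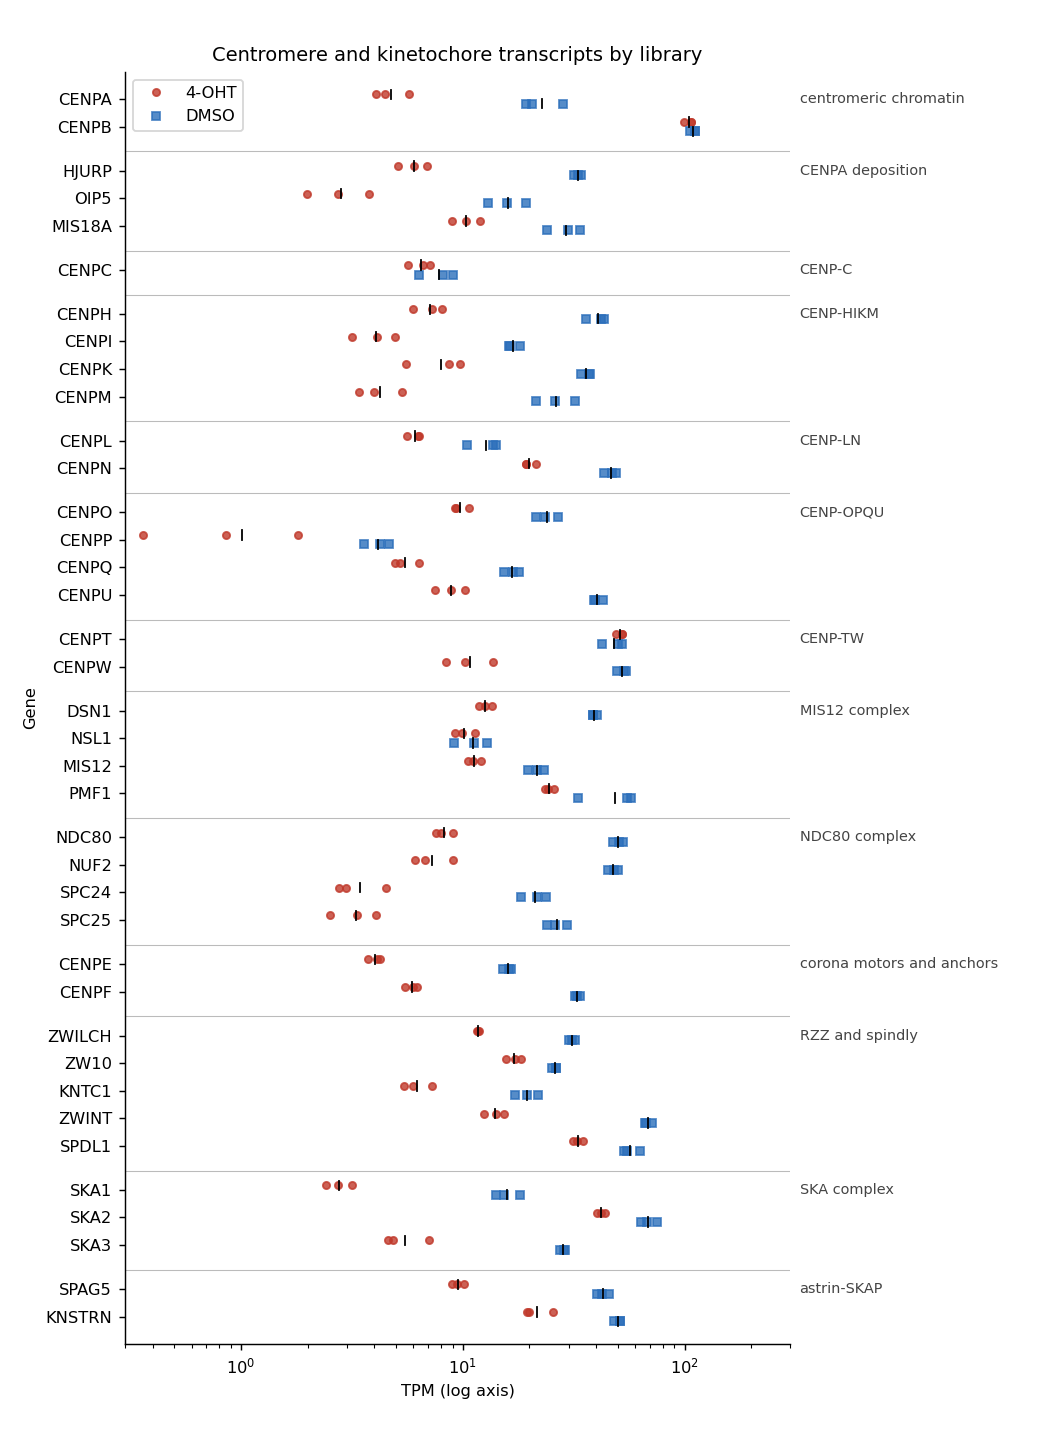
TPM of the 38 genes in each library on a log axis, grouped by complex, with 4-OHT libraries as circles above DMSO libraries as squares and a vertical tick at each group mean. The groups lie apart for 34 genes and overlap for CENPB, CENPC, CENPT and NSL1.

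**Figure D2:**
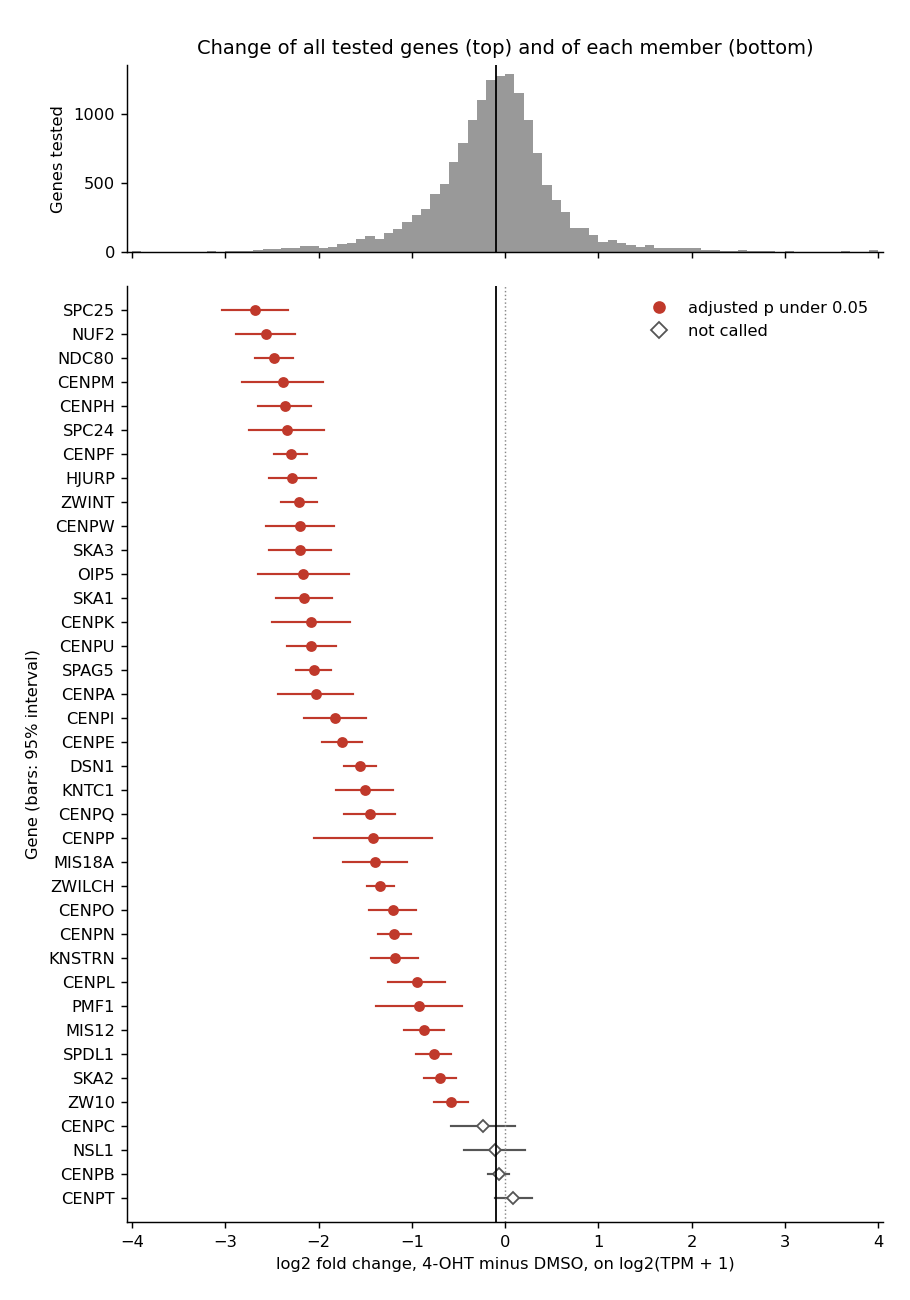
The histogram counts the log2 fold changes (4-OHT minus DMSO, on log2(TPM + 1)) of the 15272 genes tested, with values beyond 4 units drawn at the edge, and below it each member is drawn with its 95% interval. The black line is the median of all tested genes, -0.09, and the members run from -2.68 for SPC25 to 0.09 for CENPT.

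The promoters of 4 genes that fell (SPC25, NDC80, CENPA and HJURP) and of 2 that were not called (CENPB and CENPT) are shown. They were chosen with their values and matches known, to show windows with and without a CHR, and are no sample of the 38. They are from RefSeq (GRCh38.p14), 5′ to 3′, 250 bases before to 50 after a RefSeq start of the gene. In CENPA and SPC25 that start lies inside the gene as GENCODE 29 gives it. Capitals mark matches on either strand to CCAAT, to the CHR (TTTGAA or TTCGAA) or to an E2F site (TTTCCCGC, TTTCGCGC, TTTGCCGC or TTTGGCGC). TTCGAA reads the same on both strands, no listed motif contains another, and in NDC80 the CHR matches, which begin at -3 and 4, adjoin.
SPC25 (chr2:168890381-168890680, minus strand): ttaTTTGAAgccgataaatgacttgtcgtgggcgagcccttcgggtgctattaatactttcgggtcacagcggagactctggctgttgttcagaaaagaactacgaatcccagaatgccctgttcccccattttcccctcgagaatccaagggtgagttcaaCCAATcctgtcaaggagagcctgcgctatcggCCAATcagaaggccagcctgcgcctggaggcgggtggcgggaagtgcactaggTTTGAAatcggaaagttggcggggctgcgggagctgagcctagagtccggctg
NDC80 (chr18:2571307-2571606, plus strand): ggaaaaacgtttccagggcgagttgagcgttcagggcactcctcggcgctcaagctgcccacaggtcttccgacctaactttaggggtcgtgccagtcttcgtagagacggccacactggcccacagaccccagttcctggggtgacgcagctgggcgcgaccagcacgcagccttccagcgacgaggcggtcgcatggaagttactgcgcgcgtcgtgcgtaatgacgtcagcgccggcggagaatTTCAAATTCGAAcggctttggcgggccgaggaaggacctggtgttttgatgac
CENPA (chr2:26785806-26786105, plus strand): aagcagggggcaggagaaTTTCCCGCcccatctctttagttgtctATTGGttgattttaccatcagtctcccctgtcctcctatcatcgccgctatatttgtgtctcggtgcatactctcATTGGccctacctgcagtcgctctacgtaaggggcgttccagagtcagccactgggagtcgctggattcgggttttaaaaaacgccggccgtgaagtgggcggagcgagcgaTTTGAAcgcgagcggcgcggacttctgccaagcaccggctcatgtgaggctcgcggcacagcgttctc
HJURP (chr2:233854486-233854785, minus strand): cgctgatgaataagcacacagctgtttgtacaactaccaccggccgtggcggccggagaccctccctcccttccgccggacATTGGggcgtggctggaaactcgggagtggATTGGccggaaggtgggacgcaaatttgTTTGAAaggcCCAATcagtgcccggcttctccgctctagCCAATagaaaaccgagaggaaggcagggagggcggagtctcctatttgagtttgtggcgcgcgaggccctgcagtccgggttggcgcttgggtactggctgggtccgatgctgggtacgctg
CENPB (chr20:3786691-3786990, minus strand): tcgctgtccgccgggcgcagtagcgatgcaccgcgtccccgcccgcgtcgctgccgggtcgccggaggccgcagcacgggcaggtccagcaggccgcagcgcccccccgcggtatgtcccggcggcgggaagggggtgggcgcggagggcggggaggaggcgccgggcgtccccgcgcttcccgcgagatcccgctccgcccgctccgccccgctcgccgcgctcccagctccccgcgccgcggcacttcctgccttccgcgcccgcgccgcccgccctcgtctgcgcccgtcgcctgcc
CENPT (chr16:67847644-67847943, minus strand): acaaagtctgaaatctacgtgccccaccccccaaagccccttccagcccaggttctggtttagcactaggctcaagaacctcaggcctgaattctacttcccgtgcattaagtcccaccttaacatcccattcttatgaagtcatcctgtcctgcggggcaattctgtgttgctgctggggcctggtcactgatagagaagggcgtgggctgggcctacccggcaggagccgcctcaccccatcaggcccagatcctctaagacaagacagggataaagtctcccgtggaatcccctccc

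In SPC25 the CHR matches begin at -247 and -3 and the CCAAT matches begin at -88 and -56. In CENPA a CHR begins at -18. The windows of CENPB and CENPT hold no match to any of the 3 motifs. RefSeq windows were used for 33 members (all but CENPH, CENPL, CENPM, KNTC1 and MIS18A), and a gene with several starts counts as holding a motif when any of its windows does. CENPP counts as holding CCAAT only through a window at 92600007 to 92600306 of chromosome 9, far inside the gene. The gene starts at 92325484, and its windows near that start hold no match. A CHR stood in 17 of the 33 (51.5%), against 19.5% of the 27305 genes in the table and 15.5% of the 10198 of these genes that were tested. CCAAT stood in 20 (60.6%), against 39.7% and 43.3%, and an E2F site in 4 (12.1%), against 3.99% and 6.74%. Among the 3227 tested genes with a window that were lower in 4-OHT, the shares were 18.7% for a CHR, 46.9% for CCAAT and 9.17% for an E2F site. The 17 members with a CHR had a median log2 fold change of -2.16 (range -2.68 to -0.23), and 12 of them fell by at least 2 log2 units. The 16 without had a median of -1.38 (range -2.34 to 0.09), and 3 of them fell by that much. In the 150 bases before the start a CHR stood in 5 members, with a median of -2.03, against -1.65 in the 28 without, and 3 and 12 of these fell by at least 2 log2 units. For CCAAT the medians were -1.74 with and -1.75 without in the whole window, -2.03 with and -1.65 without in the 150 bases before the start, and -1.34 with and -1.79 without within 50 bases of the start, so their order depends on the window. Of 7 members with none of the motifs, 3 (CENPB, CENPT and NSL1) were not called, while CENPE, CENPI, DSN1 and KNSTRN fell. CENPC, not called either, holds a CHR that begins at -90. Some windows lie inside the gene as GENCODE 29 gives it. The window of CENPI (chromosome X, 101100808 to 101101107) lies past the gene's start at 101098218. That of CENPA lies past the start at 26764289, and that of NUF2 (chromosome 1, 163321704 to 163322003) past the start at 163266576. SPC25, on the minus strand, starts at 168913371, well before its window. CENPA, NUF2 and SPC25 count among the members with a CHR. Whether these windows hold the promoter in use was not tested. These matches describe the windows only, and members with and without a motif were not compared by a test.

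Among the chromatin proteins of the centromere, CENPA fell and CENPB was not called. CENPA (chromosome 2, 26764289 to 26801067, plus strand, GRCh38, GENCODE 29) stood at 4.08, 4.46 and 5.72 TPM in 4-OHT and at 19.3, 20.6 and 28.2 TPM in DMSO, with every 4-OHT library below every DMSO library (log2 fold change -2.03, SE 0.170, adjusted p = 7.22e-05). CENPB (chromosome 20, 3783851 to 3786690, minus strand), which binds a short box in alpha-satellite DNA and is not part of the CCAN, stood at 106, 107 and 99.7 TPM in 4-OHT and at 111, 106 and 111 TPM in DMSO. Its groups overlap, and its log2 fold change of -0.07 (95% interval -0.18 to 0.04, adjusted p = 0.272) turned to 0.05 under median-of-ratios scaling without passing the test. Within a library CENPB outnumbered CENPA by 26.1, 23.9 and 17.4 times in 4-OHT and by 5.79, 5.13 and 3.94 times in DMSO.

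The factors that load CENP-A fell as well. HJURP, its dedicated chaperone, was at 6.03, 5.11 and 6.91 TPM in 4-OHT and at 33.2, 34 and 31.7 TPM in DMSO (log2 fold change -2.28, SE 0.107, adjusted p = 4.53e-06). OIP5, which encodes Mis18-beta, was at 2.74, 3.79 and 1.98 TPM in 4-OHT and at 19.3, 12.97 and 15.9 TPM in DMSO (-2.16, adjusted p = 0.000147). MIS18A, its partner, stood at 35.8% of its DMSO mean, at 11.9, 8.92 and 10.4 TPM in 4-OHT and at 23.9, 33.6 and 29.7 TPM in DMSO (-1.40, adjusted p = 0.000236). The groups of all 3 genes lie apart. The strand setting of the quantification is not given, and 38% of the exon bases of OIP5 lie on exons of the antisense RNA OIP5-AS1, which stood at 29.9, 32.7 and 30.3 TPM in 4-OHT and at 26.0, 25.3 and 27.1 TPM in DMSO. Its part in the OIP5 values was not tested.

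In the inner kinetochore 10 of 13 genes fell by at least 1 log2 unit. CENP-C, which bridges CENP-A nucleosomes and the MIS12 complex, is encoded by CENPC, at 5.67, 7.14 and 6.60 TPM in 4-OHT and at 8.15, 9.01 and 6.35 TPM in DMSO. The groups overlap, and the log2 fold change of -0.23 (95% interval -0.58 to 0.11, adjusted p = 0.223) was 0.02 under quantile normalization.

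All 4 genes of the CENP-H, -I, -K and -M group, which links the inner layer to CENP-C and CENP-T, fell, and their summed level in 4-OHT was 19.5% of that in DMSO. CENPM was at 5.35, 3.42 and 3.98 TPM in 4-OHT and at 21.3, 26.0 and 32.1 TPM in DMSO (-2.39, adjusted p = 4.98e-05). CENPI, which changed least of the 4, was at 4.11, 3.18 and 4.93 TPM in 4-OHT and at 16.3, 18.1 and 16.1 TPM in DMSO (-1.83, adjusted p = 4.95e-05). CENPH (-2.36) and CENPK (-2.08) lay between them, and in none of the 4 did the groups overlap.

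CENP-L and CENP-N, which read the CENP-A nucleosome, both fell. CENPN was at 21.4, 19.3 and 19.2 TPM in 4-OHT and at 43.5, 47.3 and 49.3 TPM in DMSO (-1.19, adjusted p = 1.71e-05). CENPL was at 6.26, 6.36 and 5.64 TPM in 4-OHT and at 10.4, 14.1 and 13.7 TPM in DMSO (-0.95, adjusted p = 0.000847). Both keep the groups apart, and the pair retained 43.8% of its summed DMSO level.

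Of the CENP-O, -P, -Q and -U group all 4 genes fell. CENPU, which recruits the kinase PLK1 with CENP-Q, was at 8.88, 10.2 and 7.52 TPM in 4-OHT and at 38.9, 39.6 and 42.9 TPM in DMSO (-2.08, adjusted p = 7.72e-06). CENPO was at 9.27, 9.28 and 10.7 TPM in 4-OHT and at 26.8, 23.5 and 21.3 TPM in DMSO (-1.21, adjusted p = 9.53e-05), and CENPQ changed by -1.45. CENPP was the lowest of the 38 genes, at 0.364, 1.81 and 0.861 TPM in 4-OHT and at 4.64, 4.22 and 3.58 TPM in DMSO (-1.41, adjusted p = 0.00406). With a pseudocount of 0.1 its log2 fold change was -2.16. The exons of IPPK, on the other strand, cover 38% of the exon bases of CENPP and those of ADCY3 cover 27% of those of CENPO, and what this adds to either row was not tested.

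CENP-T and CENP-W, histone-fold partners that form a DNA-binding unit and, through CENP-T, a path to the NDC80 complex, differed in what was called. CENPT (chromosome 16, 67828157 to 67847811, minus strand) was at 52.3, 48.9 and 52.3 TPM in 4-OHT and at 52.2, 50.02 and 42.6 TPM in DMSO, with overlapping groups (0.09, 95% interval -0.11 to 0.28, adjusted p = 0.424). CENPW was at 8.42, 13.7 and 10.3 TPM in 4-OHT and at 49.4, 53.3 and 54.7 TPM in DMSO (-2.20, adjusted p = 2.98e-05). The ratio of CENPT to CENPW was 6.21, 3.58 and 5.10 in 4-OHT and 1.06, 0.939 and 0.779 in DMSO.

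The platform of the outer kinetochore, the MIS12 complex, had 3 of 4 genes lower and NSL1 not called. DSN1, which docks the complex on CENP-C under the control of Aurora B, was at 11.9, 12.6 and 13.6 TPM in 4-OHT and at 38.5, 40.4 and 38.6 TPM in DMSO (-1.56, SE 0.0708, adjusted p = 3.95e-06). MIS12 was at 12.1, 10.6 and 11.2 TPM in 4-OHT and at 19.7, 21.7 and 23.2 TPM in DMSO (-0.87, adjusted p = 0.000221). NSL1 was at 9.24, 9.89 and 11.3 TPM in 4-OHT and at 12.9, 9.16 and 11.3 TPM in DMSO. Its groups overlap, and its log2 fold change of -0.11 (95% interval -0.44 to 0.21, adjusted p = 0.533) was 0.06 under quantile normalization.

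PMF1 was at 24.2, 25.7 and 23.4 TPM in 4-OHT and at 55.1, 33.2 and 57.3 TPM in DMSO (-0.92, adjusted p = 0.00662). The second DMSO library lies well under the others. The read-through gene PMF1-BGLAP, whose exons cover 23.3% of the exon bases of PMF1 on the same strand, was at 7.36, 7.11 and 5.56 TPM in 4-OHT and at 4.45, 15.8 and 7.17 TPM in DMSO, highest in that same library. The sum of both rows was 31.6, 32.8 and 28.96 TPM in 4-OHT and 59.6, 49.0 and 64.4 TPM in DMSO, a mean of 54.0% of DMSO against 50.4% for PMF1 alone.

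All 4 genes of the NDC80 complex fell by at least 2 log2 units. Their summed level was 25.2, 20.9 and 20.7 TPM in 4-OHT and 147, 137 and 154 TPM in DMSO, a mean of 15.3% of DMSO, the lowest of the 13 groups of members. NDC80 itself (chromosome 18, 2571511 to 2616635, plus strand), the microtubule-binding subunit, was at 9.04, 8.02 and 7.58 TPM in 4-OHT and at 53.0, 47.4 and 50.6 TPM in DMSO (-2.48, SE 0.0847, adjusted p = 1.13e-06). Its partner NUF2 was at 9.08, 6.76 and 6.09 TPM in 4-OHT and at 48.0, 45.3 and 49.98 TPM in DMSO (-2.57, adjusted p = 6.96e-06). Both long-arm subunits were lower in every 4-OHT library than in any DMSO library. SPC25, which with SPC24 forms the end that docks on the MIS12 complex and CENP-T, was at 2.53, 3.35 and 4.06 TPM in 4-OHT and at 23.9, 26.0 and 29.6 TPM in DMSO. It fell by 2.68 log2 units on log2(TPM + 1) (SE 0.151, limma adjusted p = 1.01e-05), the largest change among the 38. Its mean in TPM, with no pseudocount, was 7.99-fold lower in 4-OHT. SPC24 was at 4.53, 2.78 and 2.98 TPM in 4-OHT and at 21.7, 18.4 and 23.8 TPM in DMSO (-2.34, adjusted p = 3.59e-05). The groups of SPC24 and SPC25 lie apart too. In the summed level, NDC80 held 37.0% ± 1.25 in 4-OHT and 34.5% ± 1.64 in DMSO, and NUF2 held 32.6% ± 3.34 in 4-OHT and 32.8% ± 0.298 in DMSO (SD, n = 3 each).

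**Figure D3:**
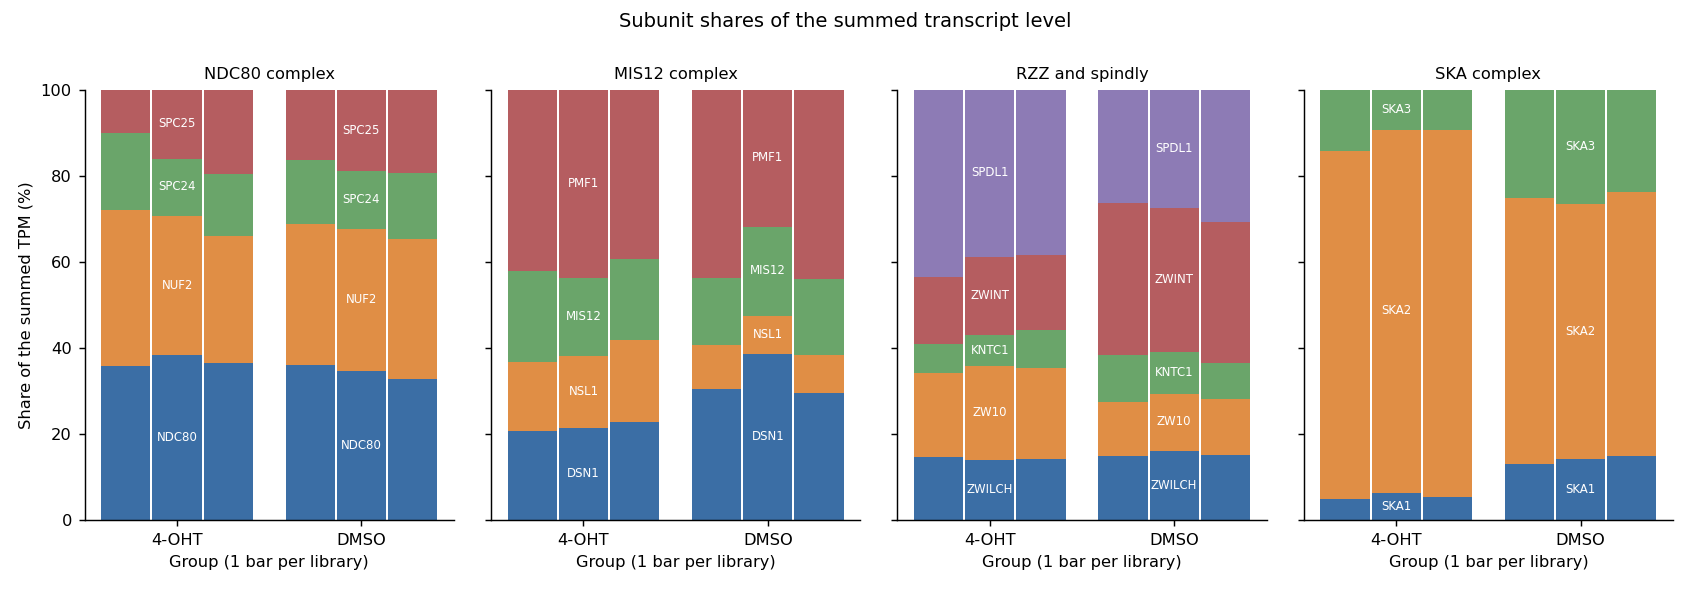
Share of each subunit in the summed TPM of its group of genes, in percent, with 1 stacked bar per library and 4-OHT left of DMSO. In the NDC80 complex NDC80 holds 37.0% in 4-OHT against 34.5% in DMSO, while SKA2 holds 83.5% in 4-OHT against 60.8% in DMSO and NSL1 17.3% against 9.22%.

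In the fibrous corona, the outermost layer at unattached kinetochores, CENPF and CENPE fell. CENPF, a large protein that also binds dynein regulators, was at 5.97, 6.19 and 5.51 TPM in 4-OHT and at 31.99, 33.8 and 32.9 TPM in DMSO (-2.30, adjusted p = 9.6e-07). The kinesin CENPE, which carries chromosomes toward the spindle equator, was at 3.76, 4.23 and 4.12 TPM in 4-OHT and at 15.1, 16.5 and 16.2 TPM in DMSO (-1.75, adjusted p = 6.89e-06). The groups of both lie apart, with little spread among replicates.

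The RZZ complex (ZW10, ZWILCH and the ROD protein encoded by KNTC1) brings dynein and the checkpoint to kinetochores together with spindly (SPDL1) and the linker ZWINT. All 5 genes fell. ZWINT was at 12.5, 15.3 and 14.1 TPM in 4-OHT and at 71.2, 66.1 and 67.0 TPM in DMSO (-2.21, adjusted p = 1.58e-06). KNTC1 was at 5.44, 5.96 and 7.27 TPM in 4-OHT and at 21.7, 19.5 and 17.3 TPM in DMSO (-1.51, adjusted p = 7.94e-05). ZW10, which also acts in membrane traffic outside mitosis, changed least of the 34 genes that fell, at 15.7, 18.4 and 17.2 TPM in 4-OHT and at 25.3, 26.4 and 26.3 TPM in DMSO (-0.58, SE 0.0765, adjusted p = 0.000719). ZWILCH (-1.34) and SPDL1 (-0.77) stood at 37.7% and 58.0% of their DMSO means. In all 5 genes the groups lie apart.

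The SKA complex, which strengthens the hold of NDC80 on microtubule ends, and astrin-SKAP, which acts beside it, fell as well. SKA3 was at 7.02, 4.59 and 4.85 TPM in 4-OHT and at 27.5, 28.6 and 28.99 TPM in DMSO (-2.20, adjusted p = 2.01e-05). SKA1 was at 2.43, 3.17 and 2.74 TPM in 4-OHT and at 14.2, 15.3 and 18.1 TPM in DMSO (-2.15, adjusted p = 1.34e-05). SKA2 was at 40.1, 41.8 and 43.8 TPM in 4-OHT and at 67.5, 63.9 and 74.9 TPM in DMSO (-0.70, adjusted p = 0.00021), so that it was by far the most abundant of the 3 in either group. In these 3 genes no 4-OHT library reached a DMSO library. SPAG5, which encodes astrin, was at 8.99, 10.2 and 9.44 TPM in 4-OHT and at 45.8, 42.3 and 40.1 TPM in DMSO (-2.05, adjusted p = 1.94e-06). KNSTRN, which encodes SKAP, was at 19.8, 25.6 and 19.5 TPM in 4-OHT and at 47.9, 51.2 and 51.2 TPM in DMSO (-1.18, adjusted p = 0.000104). Both genes have their groups apart.

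Ratios of 2 genes within a library do not depend on scaling between libraries. For 6 pairs they were compared by an exact permutation test of the log2 ratio, 2-sided, for which 3 against 3 libraries allow no p below 0.1. CENPB and CENPA are both centromeric chromatin proteins but not partners of a complex. The differences follow from the changes of the single genes given above and are no separate evidence. In 5 pairs the groups lie apart and the test gave that smallest p (0.12 after Benjamini-Hochberg adjustment over the 6 pairs), so none could pass a threshold of 0.05. The log2 ratio was higher in 4-OHT by 2.40 for CENPT over CENPW, 2.18 for CENPB over CENPA, 1.80 for SKA2 over SKA1, 1.04 for ZW10 over KNTC1 and 0.70 for MIS12 over DSN1. The ratio of SKA2 to SKA1 was 16.5, 13.2 and 15.99 in 4-OHT and 4.76, 4.18 and 4.13 in DMSO. The ratio of ZW10 to KNTC1 was 2.88, 3.08 and 2.37 in 4-OHT and 1.16, 1.35 and 1.52 in DMSO. In both pairs every 4-OHT ratio lies above every DMSO ratio. That of MIS12 to DSN1 was 1.02, 0.841 and 0.824 in 4-OHT and 0.511, 0.537 and 0.601 in DMSO. NUF2 over NDC80 was 1.00, 0.843 and 0.803 in 4-OHT and 0.907, 0.955 and 0.988 in DMSO, with overlapping groups and a difference of -0.11 (exact permutation p = 0.4).

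**Figure D4:**
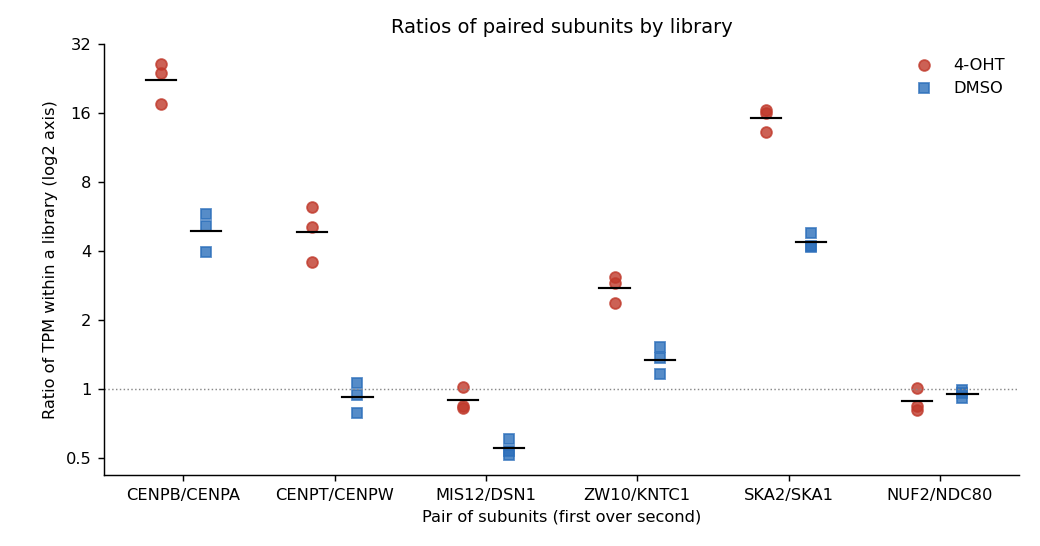
Ratio of the TPM of paired genes within each library on a log2 axis, 4-OHT as circles left of DMSO as squares, with a bar at each geometric mean. The groups lie apart in 5 pairs and overlap for NUF2/NDC80.

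A second list held 27 other genes of the same machinery, taken from the inner kinetochore, the spindle checkpoint, the chromosomal passenger complex, the shugoshins and regulators of kinetochore microtubules. Of these 23 fell and 1 rose (median -1.73), beside 29.9% lower and 19.8% higher over all tested genes. BIRC5, which encodes the passenger subunit survivin, was at 15.4, 15.9 and 15.9 TPM in 4-OHT and at 117, 113 and 119 TPM in DMSO (-2.81, adjusted p = 9.77e-08). CDCA8, the passenger subunit borealin, was at 5.63, 6.85 and 5.36 TPM in 4-OHT and at 40.8, 45.4 and 43.4 TPM in DMSO (-2.67). The checkpoint kinase gene BUB1 was at 6.39, 6.15 and 5.87 TPM in 4-OHT and at 38.4, 42.6 and 40.6 TPM in DMSO (-2.54). Their groups lie far apart.

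The gene that rose was MAD2L1BP, which encodes p31comet, a protein that helps to switch the checkpoint off by acting on MAD2. It was at 50.7, 52.1 and 48.4 TPM in 4-OHT and at 38.4, 31.4 and 40.1 TPM in DMSO, with every 4-OHT library above every DMSO library (0.46, SE 0.0956, adjusted p = 0.0063). MAD2L1, which encodes MAD2, fell (7.53, 6.29 and 7.22 TPM in 4-OHT, against 24.8, 21.2 and 21.5 TPM in DMSO, log2 fold change -1.55). TRIP13, the ATPase that works with p31comet, fell too (-2.05). MAD2L1 and TRIP13 were chosen for mention after their values were seen.

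Not called were MAD1L1, CLASP1 and CLASP2. MAD1L1, which encodes the MAD2 anchor MAD1, was at 21.0, 19.9 and 17.2 TPM in 4-OHT and at 20.7, 21.0 and 23.4 TPM in DMSO (-0.16, 95% interval -0.38 to 0.06, adjusted p = 0.2). CLASP1 and CLASP2 encode microtubule-stabilising proteins that also act in interphase. CLASP1 was at 21.1, 23.7 and 23.2 TPM in 4-OHT and at 19.5, 20.8 and 21.4 TPM in DMSO (0.13, adjusted p = 0.176). It was called higher with libraries scaled by median of ratios (0.25, limma adjusted p = 0.0231) and with quantiles equalised (0.21, limma adjusted p = 0.0481), and its adjusted p over the 14 settings ran from 0.0231 to 0.375. CLASP2 was at 18.2, 22.0 and 23.1 TPM in 4-OHT and at 24.4, 20.1 and 22.2 TPM in DMSO (-0.08, adjusted p = 0.603). The groups of these 3 genes overlap. The CENP-T and CENP-W partners CENPS (-0.76) and CENPX (-0.46) fell, as did the scaffold gene KNL1 (-2.07). These 3 were also chosen after their values were seen.

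As checks of the libraries, the row of the introduced gene HRAS, which also takes the cells' own transcript, stood at 1316, 1305 and 1222 TPM in 4-OHT and at 942, 908 and 956 TPM in DMSO. The proliferation marker MKI67 stood at 15.2% of its DMSO mean. All 8 fibroblast markers were present, with a summed level from 18984 to 19395 TPM in 4-OHT and from 19994 to 20604 TPM in DMSO, most of it VIM. Of the 8, 5 were lower, among them DCN at 48.4%, COL3A1 at 53.2% and COL1A2 at 65.2% of the DMSO mean, and 3 were higher, PDGFRB at 164%, THY1 at 134% and VIM at 111%. Of 21 markers of keratinocytes, endothelium, immune cells and melanocytes, 16 had a mean under 1 TPM, and KRT1, TYR and DCT were at 0 in every library. The exceptions were KRT10 (32 to 42.5 TPM in 4-OHT, 35.9 to 51 TPM in DMSO) and CD68 (54 to 62.8 TPM in 4-OHT, 57.8 to 87.1 TPM in DMSO), neither called, CD14, which rose, and TEK and PMEL, which fell. The call of CD14 held in 9 of the 13 settings that tested it (adjusted p up to 0.0902) and that of PMEL in 8 of 11 (up to 0.0563), while CD68 and KRT10 were each called in 2 of 14. Their part in the results was not tested.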

How the data were processed

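RNA was extracted with TRIzol and 1 µg of it went into each KAPA RNA HyperPrep library, per the labels' protocols. The authors deposited TPM per gene symbol, 1 column per library, and Trim Galore 0.6.6, STAR and StringTie with GRCh38 are named in the submitters' processing notes. The sources used here do not give the annotation, the strand setting or any scaling between libraries, and TPM do not show read depth. The deposited column of DMSO replicate 3 was entered as a score because 1 value in it lay slightly below 0. That value was set to 0 and the column otherwise used as TPM.

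The 15272 genes whose mean reached 1 TPM were tested on log2(TPM + 1) by limma 3.58.1 (R 4.3.3, moderated with a trend in the variance), 2-sided and with no covariate. Benjamini-Hochberg adjustment ran over all of them, and an adjusted p under 0.05 was called. The test was tried on simulated data first. SE and 95% intervals come from the same fit. A log2 fold change on this scale understates that of genes at low levels. Ratios of paired genes were compared by an exact permutation test. Positions and exon overlaps come from GENCODE 29 and promoter windows from RefSeq (GRCh38.p14). Python 3.11.15, pandas 2.3.3, numpy 2.4.6, scipy 1.17.1 and matplotlib 3.10.9 were used.

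The members and lists were chosen with earlier results of these data known. Values in every library are given for CENPA, HJURP and NDC80, for the most and least changed gene of each complex, for genes not called, and for the paired genes. Of the second list they are given for the 3 most changed genes and those not called or higher. Other genes given were chosen after their values were seen. As alternatives, the scaling, pseudocount, filter, variance trend, replicate block and libraries were each changed once at a time.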

Additional observations from a re-analysis of the deposited data

How the results depend on the processing

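The comparison was repeated under 13 other settings. The number of members called lower was 34 in each of them except the filter at a mean of 5 TPM, which removed CENPP and left 33, and none was called higher in any. CENPB, CENPC, CENPT and NSL1 were called in none. Signs of uncalled genes turned with the scaling between libraries, to 0.0499 for CENPB and 0.0398 for CLASP2 under median-of-ratios scaling, and to 0.0155 for CENPC, 0.0619 for NSL1 and 9.59e-05 for CLASP2 under quantile normalization, and that of CLASP2 ran from -0.142 to 0.0218 when each library was left out in turn, positive without 4-OHT replicate 1. Quantile normalization moved the log2 fold changes of all genes by a median of 0.131, and the median of the members was -1.54 under median-of-ratios scaling, -1.51 under quantile normalization and -1.999 with a pseudocount of 0.1. In the second list 2 genes in place of 1 were higher under median-of-ratios scaling and under quantile normalization, where CLASP1 joined MAD2L1BP. The calls of CENPS (limma adjusted p = 0.0893) and BUB3 (limma adjusted p = 0.0834) were lost with no filter on low values. In that setting more genes are tested and the variance trend is fitted anew to all of them. The call of CENPS was also lost without 4-OHT replicate 1 (limma adjusted p = 0.0507). The cause of these losses was not tested. With the replicate block 34 members were lower, as without it, and over all genes 4246 were lower and 2819 higher, against 4561 and 3018 without it. The labels do not say whether equal numbers pair the libraries. The correlations of same-numbered deviations from the group means were 0.0475, 0.00549 and 0.00664, and those of unlike numbers ran from -0.0573 to 0.0497. These values show no effect shared by equal numbers but cannot settle whether the libraries were paired. Leaving out each library in turn gave 3903 to 4180 genes lower and 2620 to 2755 higher. The difference in the log2 ratio of SKA2 to SKA1 was 1.46 with 1 TPM added to both genes, against 1.80 without. Of the 33 members with a promoter window, 5 in place of 17 held a CHR and 2 in place of 4 an E2F site in the 150 bases before the start. Within 50 bases of the start, a window chosen after seeing the data, 9 in place of 20 held CCAAT and 0 in place of 4 an E2F site. Depth is unknown for TPM, which limits what can be said of genes near 1 TPM such as CENPP.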

Other observations

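Most CHR matches of the members lay near the RefSeq start on which the window was built. This was seen in the data and then counted in a window of 50 bases on either side of the start, chosen after the matches were seen. In that window 14 of 33 members (42.4%) held a CHR, against 4.90% of the 10198 tested genes with a window and 6.79% of the 3227 that were lower in 4-OHT. The 14 were CENPA, CENPF, CENPN, CENPO, CENPW, NDC80, NUF2, OIP5, SKA1, SKA3, SPAG5, SPC25, SPDL1 and ZWINT. Their median log2 fold change was -2.18, against -1.34 for the 19 members without. In NUF2 the CHR begins 17 bases after the start, in OIP5 2, in CENPN and SPAG5 4, in CENPW 18, and in SKA3 it begins 3 bases before. For NUF2, CENPA and SPC25 the RefSeq start lies inside the gene as GENCODE 29 gives it.

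The 38 genes lie on 19 chromosomes, and for 14 of them an exon overlaps an exon of another gene with a mean of at least 1 TPM. PRIMPOL, which shares 11.7% of the exon bases of CENPU, was also lower in 4-OHT (log2 fold change -1.01). RGS5, which shares 0.149% of those of NUF2, was higher (2.57).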
